A study of Homo sapiens with 6 samples.

Results

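The nuclear-encoded subunits of the respiratory chain and ATP synthase were examined in hepatoblast-like cells treated with HFPO-TA. The compound is hexafluoropropylene oxide trimer acid and belongs to the perfluorinated ether acids. The cells were differentiated from the human embryonic stem cell line H9, are called hepatoblasts in the labels, and carry the stage day 19. RNA was sequenced from 3 libraries of cells given 0.1% DMSO and 3 libraries of cells given HFPO-TA. The labels print a dose of 10 in a garbled unit, and no vehicle is stated for the HFPO-TA libraries. All 6 libraries come from H9, and whether replicates were separate cultures is not stated. The p-values therefore rest on a spread among libraries that may be only technical.

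Members were taken by symbol: the NDUFA, NDUFB, NDUFC, NDUFS and NDUFV families of complex I, SDHA to SDHD of complex II, the UQCR genes of complex III, the COX genes of complex IV and the ATP5 genes of ATP synthase, here complex V. The symbol pattern matched 124 of the 60623 genes in the files. The 45 pseudogenes among them were left out, none of which had a mean of 1 TPM or more (the highest was 0.797 TPM), and 79 members remained. There were 36 members in complex I, 4 in complex II, 8 in complex III, 12 in complex IV and 19 in complex V. NDUFA4 carries a complex I name but is counted with complex IV, to which the protein is now assigned.

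The respiratory chain sits in the inner mitochondrial membrane. Complexes I and II pass electrons from NADH and succinate to coenzyme Q, complex III passes them on to cytochrome c, and complex IV reduces oxygen. Complexes I, III and IV pump protons, and ATP synthase uses the returning protons to make ATP. Most subunits are encoded in the nucleus and imported, and a smaller set is encoded by mitochondrial DNA, so both genomes supply complexes I, III, IV and V. Hepatocytes hold many mitochondria and use them for oxidation of fatty acids, urea synthesis and gluconeogenesis. GABPA, NRF1, YY1 and the estrogen-related receptors are well-known regulators of these genes.

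Promoter sequences were searched for letters recognised by these factors, because all members are read together below and share no other feature by rule. Promoter entries in RefSeq (GRCh38.p14) were found for 64 of the 79 members, and the 250 bases before each annotated start were searched on both strands. UQCRB, ATP5F1B and ATP5F1D, whose values are given below, were among the 15 members without an entry. The GABPA letters CCGGAAG were present in 17 of 64 member windows (26.6%), against 15.2% of the windows of all tested genes with an entry and 8.82% of all windows. The NRF1 letters, GCGCA and GCGC with 1 base of any kind between them, were present in 14 of 64 (21.9%), against 10.1% and 5.53%. The YY1 letters AAGATGGCG were found in 1 member window, that of ATP5PF (1.56%, against 1.03% and 0.641%). The ESRRA letters TCAAGGTCA were found in no member window (0.174% and 0.319% of the others), and neither was the element bound by PPAR receptors, AGGTCA repeated after 1 base of any kind (0.0183% and 0.0183%); these last motifs share the letters AGGTCA. At least 1 of the GABPA, NRF1, YY1 and ESRRA motifs was present in 29 member windows (45.3%, against 24.4% of tested genes), and SDHD and UQCR11 had both GABPA and NRF1 letters. The median GC content of the member windows was 61.2%, against 64.8% for tested genes and 58.0% for all. These are matches of letters, not measured binding.

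The following 30-base stretches are from some of the members whose values are given below, and do not show every match. They are written 5′ to 3′ on the strand of the gene with the match in capitals, where CTTCCGG is the other-strand form of CCGGAAG. NDUFA3, the member lower with HFPO-TA in every library, had 2 NRF1 matches with the same 10 letters.
NDUFA3, NRF1, chr19:54102675-54102704, plus strand: ctgcgcgagtGCGCACGCGCaggctccgaa
NDUFA3, NRF1, chr19:54102772-54102801, plus strand: gtgctccaggGCGCACGCGCagccctggga
NDUFA1, GABPA, chrX:119871774-119871803, plus strand: ttccgtcgcttCTTCCGGagccgtacgtgg
SDHD, GABPA, chr11:112086785-112086814, plus strand: ccgcctctcgaCTTCCGGttcacccagcat
SDHD, NRF1, chr11:112086753-112086782, plus strand: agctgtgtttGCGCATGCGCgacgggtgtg
UQCRH, GABPA, chr1:46303641-46303670, plus strand: agtgtgccgcaCTTCCGGccagatcgccgg
COX5B, GABPA, chr2:97646014-97646043, plus strand: gaagcccgcccCCGGAAGtccctcctgtct
COX6A1, GABPA, chr12:120438083-120438112, plus strand: attttccacttccgCTTCCGGcgctgcggc
ATP5PF, GABPA, chr21:25735066-25735095, minus strand: tgccaggggacCCGGAAGcacttaccctcc
ATP5PF, YY1, chr21:25735092-25735121, minus strand: aggcgaagaaAAGATGGCGgaggctgtgcc
ATP5ME, NRF1, chr4:674476-674505, minus strand: cgcagcaactGCGCAGGCGCagccgatgat

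Among the genes with a printed match are members with group means close together (UQCRH, COX6A1, ATP5ME), members with higher values under HFPO-TA (NDUFA1, COX5B, ATP5PF) and the lower NDUFA3. Counted from the RefSeq start, the matches began 170 and 73 bases upstream in NDUFA3, 47 in NDUFA1, 77 (GABPA) and 110 (NRF1) in SDHD, 46 in UQCRH, 37 in COX5B, 16 in COX6A1, 30 (GABPA) and 57 (YY1) in ATP5PF and 219 in ATP5ME. ATP5ME had another NRF1 match, not printed, that began 174 bases upstream. Also not printed were NRF1 matches in SDHA, which began 166, 117, 68 and 19 bases upstream, and in UQCRFS1, 31 bases upstream. A GABPA match in NDUFA13, 10 bases upstream, was not printed either. GENCODE 29 places exons of the same or neighbouring transcripts over all 250 bases of the NDUFA1, ATP5PF and ATP5ME windows, over 233 of SDHD, 228 of UQCRH and 166 of NDUFA3, and over 22 of COX5B and 23 of COX6A1. UQCRC2, with a log2 fold change of 0.29, had none of these letters in its window.

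The cells expressed nearly every member. Values are in TPM, transcript levels scaled for gene length and library total, so levels may be compared between genes, and sequencing depth is unknown. Of the 79 members, 77 had at least 1 TPM in 3 or more libraries and were tested. COX7A1, the isoform of heart and skeletal muscle, was listed at 0 in all 6 libraries. COX7A2, the isoform of other tissues, stood at 172, 197 and 204 TPM in DMSO replicates 1 to 3 and at 195, 223 and 226 TPM in HFPO-TA replicates 1 to 3. ATP5MGL, a copy of the gene for a small membrane subunit of ATP synthase, was at 0 except for 0.15 TPM in HFPO-TA replicate 1.

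Mean levels over the 6 libraries ran from 14.8 to 973 TPM, a ratio of 65.6, with a median of 164 TPM, and 60 of the 77 tested members stood at 100 TPM or more. The median level was 115 TPM in complex I (14.8 to 582), 123 TPM in complex II (107 to 127), 221 TPM in complex III (37.7 to 464), 365 TPM in complex IV (89.1 to 837) and 269 TPM in complex V (45.2 to 973). The 4 subunits of complex II thus differed by 1.18 times from lowest to highest, against 39.2 times among the 36 of complex I. Such a ratio can only grow as genes are added, so these ratios are not on the same footing. Within the DMSO group the coefficient of variation of a member had a median of 5.76% (0.598% to 16.6%).

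**Figure D1:**
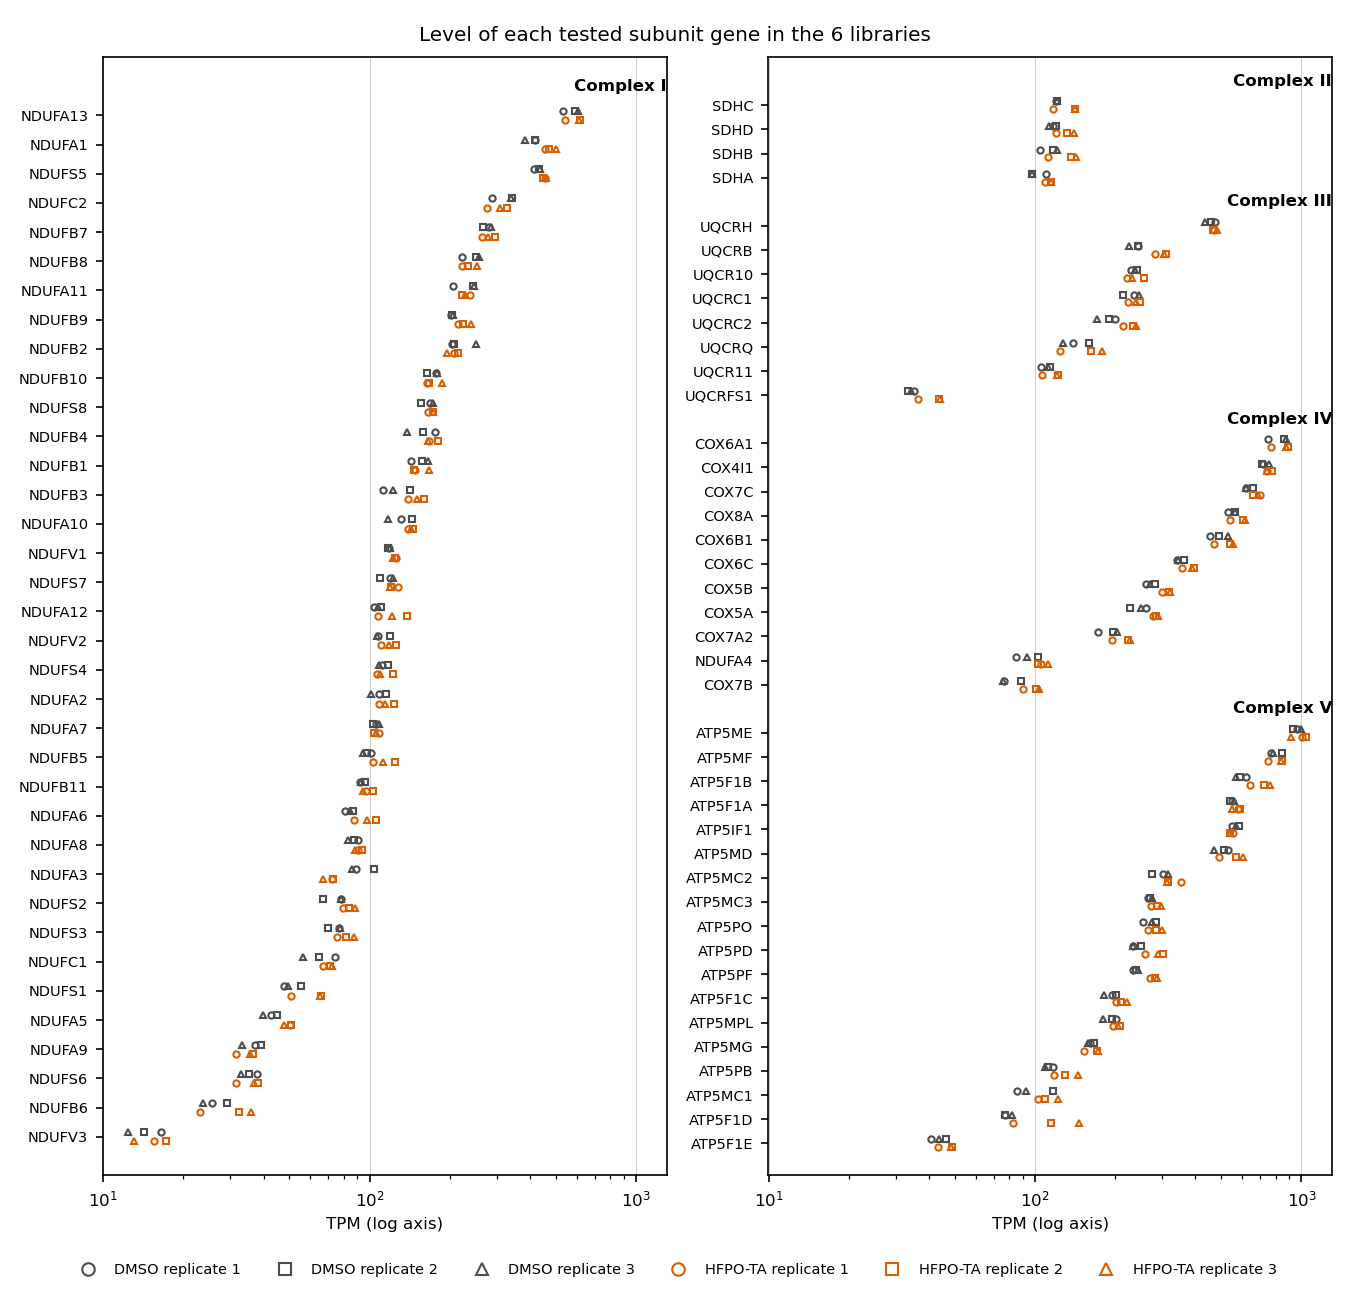
TPM in each of the 6 libraries of each tested member (log axis), grouped by complex I to V and ordered by mean. The means of complex II lie in a band from 107 to 127 TPM, while those of complex I reach from 14.8 to 582 TPM and those of complex V from 45.2 to 973 TPM.

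No member changed by the test. In limma fitted across all 15664 genes, 0 of 77 members had a Benjamini-Hochberg adjusted p under 0.05, against 0.492% of all genes tested (0.185% higher, 0.306% lower). The smallest adjusted p among members was 0.0763, for UQCRB. At an unadjusted p under 0.05 there were 18 members with higher and 1 with lower values under HFPO-TA, where the shares over all genes were 5.45% and 6.56%, and 7.96% were higher among genes whose mean reached 10 TPM. The SE of a member's log2 fold change had a median of 0.07 and ran from 0.05 to 0.19, so a difference of the members' usual size was close to its SE. RNA from the whole culture was measured, so fewer cells of a type and less RNA per cell cannot be told apart.

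The differences, all small, lay mostly on the same side. The log2 fold change of HFPO-TA minus DMSO was above 0 in 67 of 77 members (87.0%), against 48.3% of all genes tested and 52.0% of the 8087 genes whose mean reached 10 TPM. Its median was 0.10 over the members, with the middle of the distribution from 0.04 to 0.19 and the full range from -0.39 to 0.50, against -0.01 over all genes tested. Means of the 2 groups lay within 10% of each other for 47 members and within 20% for 71. In 21 members all 3 HFPO-TA libraries stood above all 3 DMSO libraries, and in 1 member all 3 stood below; the shares over all genes were 8.55% and 9.40%, and over genes whose mean reached 10 TPM 11.5% and 9.53%. Members share libraries and are not independent of each other, so these counts are a description.

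**Figure D2:**
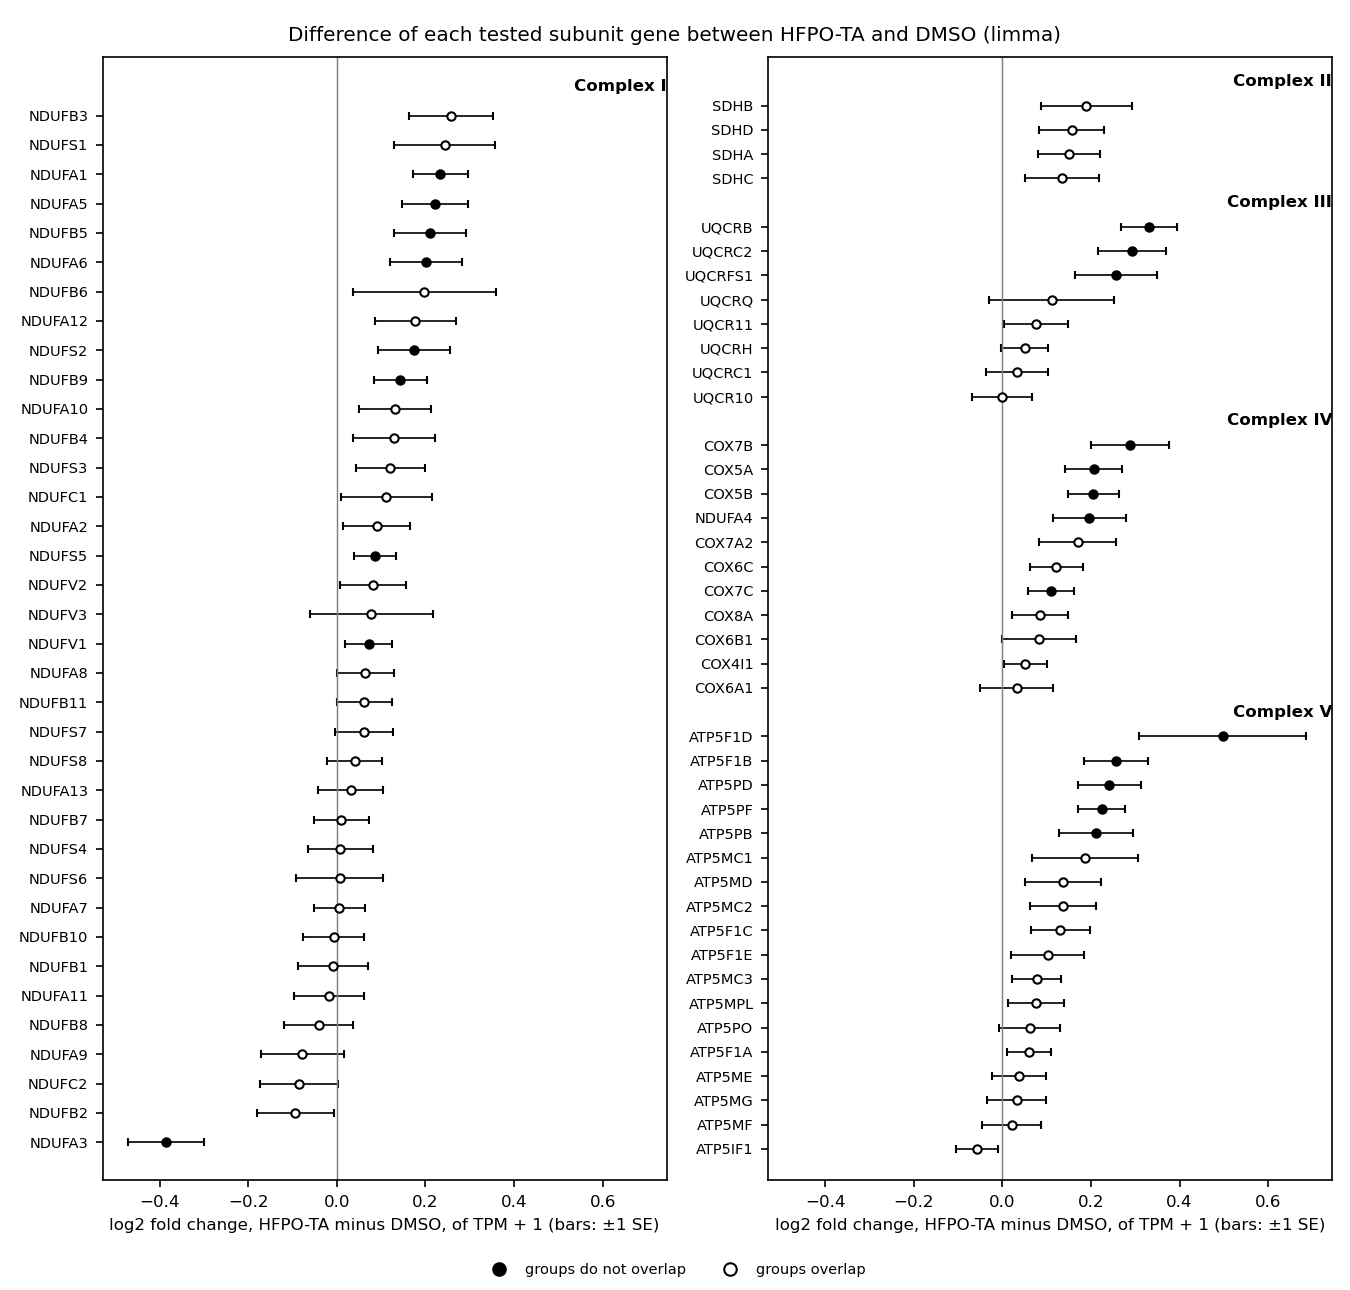
Log2 fold change (HFPO-TA minus DMSO, log2(TPM + 1) scale) of each tested member by complex, with bars of 1 SE; filled symbols are members whose 2 groups of 3 libraries do not overlap. Of 77 members, 67 lie above 0, and NDUFA3 at -0.39 is the lowest.

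Complex I, the NADH dehydrogenase, had the most mixed values. The log2 fold change was above 0 in 28 of 36 members, with a median of 0.07. Without overlap of the groups, 8 members had higher and 1 lower values, where the shares over all genes were 8.55% and 9.40%. All 7 core catalytic subunits, which carry the flavin, the iron-sulfur clusters and the NADH site, were above 0 (median 0.08). Of the 11 NDUFB subunits of the membrane arm 7 were above 0 (median 0.06), and of the 18 other accessory subunits 14 (median 0.07).

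NDUFA3, an accessory subunit of the membrane arm, measured 89.2, 104 and 86.2 TPM in the DMSO libraries and 72.3, 73.1 and 66.9 TPM in the HFPO-TA libraries. All 3 HFPO-TA values lay below the lowest DMSO value, the only member for which this held. The means were 93.0 ± 9.30 and 70.8 ± 3.39 TPM (SD, n = 3 each), and the log2 fold change was -0.39 (SE 0.09, limma adjusted p = 0.115), so the difference missed the threshold. Its annotated gene (chromosome 19, 54102728 to 54109257, plus strand, GENCODE 29) overlaps TFPT on the other strand, and the strand setting of the libraries is not given, so the value is uncertain to that extent. TFPT stood at 8.87 ± 0.76 and 9.19 ± 2.52 TPM. Overlaps were common: 52 of the 79 members overlap another gene in GENCODE 29, on the same or the other strand. TIMM8B, which overlaps SDHD on the other strand, had a mean of 41.4 TPM. Much stronger neighbours on the other strand were RPS28 over NDUFA7 (means of 689 and 106 TPM) and EEF1B2 over NDUFS1 (599 and 55.6 TPM). The values of NDUFA7 and of NDUFS1, a core subunit with a log2 fold change of 0.24, are therefore uncertain in the same way.

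NDUFA1, a small accessory subunit encoded on the X chromosome, measured 416, 417 and 382 TPM with DMSO and 454, 473 and 502 TPM with HFPO-TA. The groups did not overlap, with a log2 fold change of 0.23 (SE 0.06, limma adjusted p = 0.175). NDUFA13, the most abundant member of the complex, measured 532, 589 and 606 TPM with DMSO and 539, 616 and 609 TPM with HFPO-TA, and the groups overlapped (log2 fold change 0.03, adjusted p = 0.916). NDUFV3, the least abundant, had means of 14.4 and 15.3 TPM.

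Complex II, succinate dehydrogenase, is encoded by nuclear genes alone and also belongs to the citric acid cycle. All 4 members had a log2 fold change above 0 (0.13 to 0.19, median 0.15), and none passed an unadjusted p under 0.05. SDHD, a membrane anchor, measured 117, 120 and 113 TPM with DMSO and 120, 132 and 140 TPM with HFPO-TA (log2 fold change 0.16, SE 0.07, limma adjusted p = 0.449). SDHA, the flavoprotein and the lowest of the 4, measured 110, 97.2 and 97.4 TPM with DMSO and 109, 114 and 115 TPM with HFPO-TA (log2 fold change 0.15, SE 0.07, adjusted p = 0.449). SDHC, the other anchor and the highest, measured 120, 121 and 120 TPM with DMSO and 117, 141 and 141 TPM with HFPO-TA (adjusted p = 0.589). SDHB measured 104, 117 and 121 TPM with DMSO and 112, 137 and 143 TPM with HFPO-TA (log2 fold change 0.19, limma adjusted p = 0.529). In all 4 members the HFPO-TA replicates 2 and 3 lay above all DMSO libraries and replicate 1 lay among or below them.

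Complex III, the cytochrome bc1 complex, held the member with the smallest p. UQCRB, a small subunit close to the coenzyme Q site, measured 244, 244 and 225 TPM with DMSO and 282, 311 and 306 TPM with HFPO-TA. Every HFPO-TA library stood above every DMSO library. The means were 238 ± 10.6 and 299 ± 15.5 TPM (SD, n = 3 each), with a log2 fold change of 0.33 (SE 0.06, limma adjusted p = 0.0763).

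UQCRC2, a core subunit on the matrix side, measured 200, 190 and 171 TPM with DMSO and 214, 234 and 240 TPM with HFPO-TA, also without overlap (log2 fold change 0.29, SE 0.08, adjusted p = 0.175). UQCRFS1, the Rieske iron-sulfur protein and the least abundant member of the complex, measured 35.0, 33.3 and 34.3 TPM with DMSO and 36.2, 43.5 and 43.8 TPM with HFPO-TA (log2 fold change 0.26, limma adjusted p = 0.314). In this gene HFPO-TA replicate 1 stood just above the DMSO libraries. UQCRH, the hinge protein and the most abundant, measured 476, 459 and 434 TPM with DMSO and 468, 464 and 484 TPM with HFPO-TA, with overlapping groups (log2 fold change 0.05, adjusted p = 0.781). Over the 8 members 7 were above 0 (median 0.09).

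Complex IV, cytochrome c oxidase, had all 11 tested members above 0, with a median log2 fold change of 0.12. In 5 members the values were higher without overlap of the groups, against 8.55% of all genes. COX5B, a peripheral subunit on the matrix side, measured 261, 283 and 271 TPM with DMSO and 300, 319 and 321 TPM with HFPO-TA (log2 fold change 0.21, SE 0.06, limma adjusted p = 0.203). COX7B, a small membrane subunit and the least abundant, measured 76.3, 88.6 and 75.6 TPM with DMSO and 90.0, 101 and 103 TPM with HFPO-TA (log2 fold change 0.29, SE 0.09, adjusted p = 0.240). In both genes every HFPO-TA library stood above every DMSO library.

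NDUFA4 measured 84.6, 102 and 93.3 TPM with DMSO and 106, 103 and 112 TPM with HFPO-TA, without overlap though HFPO-TA replicate 2 and DMSO replicate 2 nearly touched (log2 fold change 0.20, SE 0.08, limma adjusted p = 0.396). COX6A1, the isoform of tissues other than muscle and the most abundant member of the complex, measured 746, 860 and 876 TPM with DMSO and 768, 892 and 879 TPM with HFPO-TA. Its groups overlapped, with replicate 1 the lowest of each (log2 fold change 0.03, adjusted p = 0.920). COX7A2, whose values are given above, had a log2 fold change of 0.17 (adjusted p = 0.494).

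Complex V, ATP synthase, had 17 of 18 tested members above 0, with a median of 0.12, and the exception was its inhibitor. The 4 subunits of the peripheral stalk, which holds the catalytic head still against the turning rotor, had a median log2 fold change of 0.22. ATP5PF, the coupling factor in that stalk, measured 233, 240 and 243 TPM with DMSO and 269, 282 and 287 TPM with HFPO-TA, without overlap (log2 fold change 0.22, SE 0.05, limma adjusted p = 0.133). Its gene (chromosome 21, 25716503 to 25735673, minus strand) overlaps GABPA on the other strand, which stood at 8.43 ± 0.94 and 9.39 ± 0.26 TPM.

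The 5 subunits of the F1 head and its central stalk were all above 0 (median 0.13). ATP5F1B, the catalytic beta subunit, measured 619, 588 and 566 TPM with DMSO and 640, 720 and 764 TPM with HFPO-TA, without overlap (log2 fold change 0.26, SE 0.07, adjusted p = 0.213). ATP5F1D, the delta subunit of the central stalk, is named after its values were seen because it had the largest log2 fold change of the members, 0.50 (SE 0.19, limma adjusted p = 0.361). It measured 77.2, 77.2 and 82.1 TPM with DMSO and 82.4, 115 and 146 TPM with HFPO-TA: HFPO-TA replicate 1 stood at the level of the DMSO libraries, just above them, and replicates 2 and 3 well above. ATP5F1E, the epsilon subunit and the least abundant of the complex, had means of 43.6 and 46.9 TPM.

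The c ring is encoded by 3 genes whose precursors differ in the import peptide and yield the same mature protein. ATP5MC1 measured 85.8, 117 and 92.1 TPM with DMSO and 103, 109 and 122 TPM with HFPO-TA (limma adjusted p = 0.607). ATP5MC2 measured 302, 274 and 316 TPM and 352, 316 and 312 TPM (adjusted p = 0.530), and ATP5MC3 265, 270 and 276 TPM and 272, 287 and 296 TPM (adjusted p = 0.651). The groups overlapped in all 3, and ATP5MC2 and ATP5MC3 stood well above ATP5MC1 in every library. ATP5ME, a membrane subunit and the most abundant of all members, measured 959, 927 and 993 TPM with DMSO and 1001, 1044 and 915 TPM with HFPO-TA (log2 fold change 0.04, adjusted p = 0.868). ATP5IF1, which blocks the hydrolysis of ATP by the enzyme, measured 549, 581 and 567 TPM with DMSO and 553, 537 and 539 TPM with HFPO-TA (log2 fold change -0.06, adjusted p = 0.701).

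**Figure D3:**
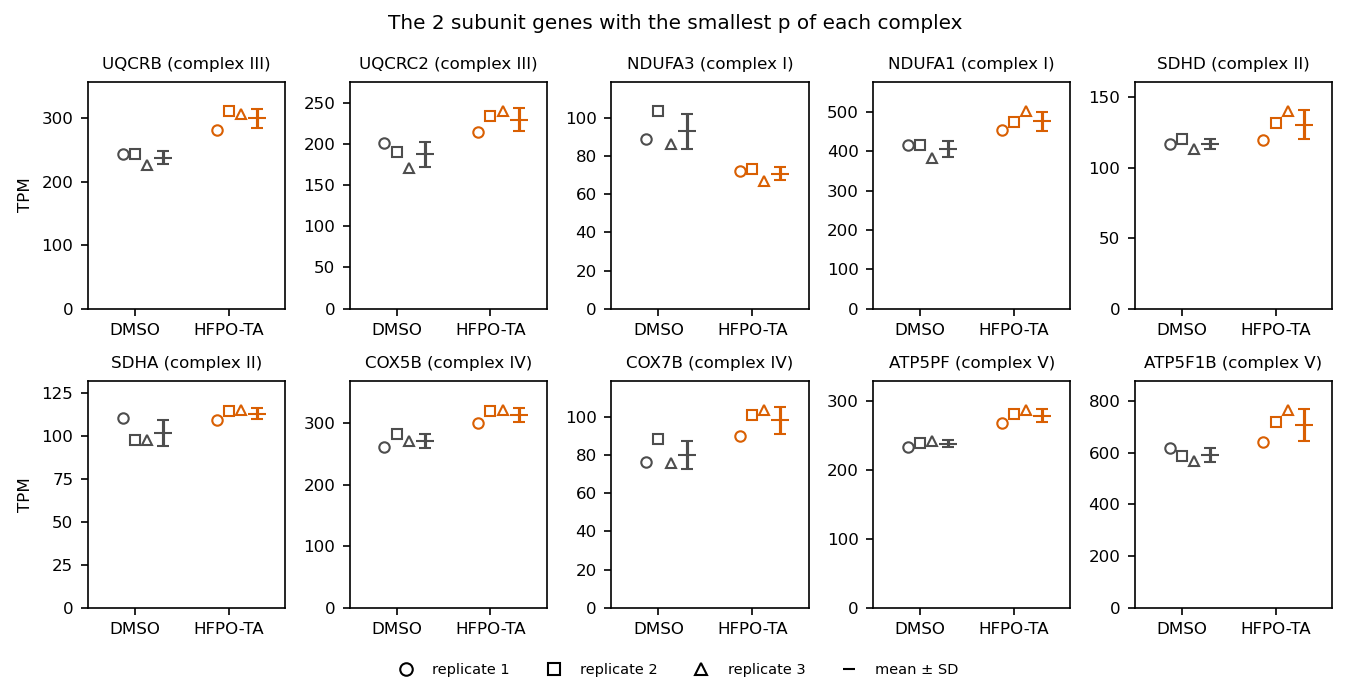
TPM in each of the 6 libraries for the 2 members with the smallest p of each complex, with DMSO and HFPO-TA side by side. Points are libraries and bars are mean ± SD. UQCRB at 225 to 244 TPM with DMSO and 282 to 311 TPM with HFPO-TA shows no overlap. In SDHD, HFPO-TA replicate 1 (119.5 TPM) lies among the DMSO libraries (113 to 120 TPM).

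The members' summed level was 17845, 18444 and 18268 TPM in the DMSO libraries and 18465, 19891 and 19868 TPM in the HFPO-TA libraries. HFPO-TA replicate 1 thus lay beside the highest DMSO library, and replicates 2 and 3 stood apart from the other 4. The same library was the lowest of the HFPO-TA group in 56 of the 77 members. It stood above all DMSO libraries in 26 members and below all in 12, where replicate 2 did so in 60 and 2, and replicate 3 in 49 and 4. The shares of all genes above all DMSO libraries ran the other way, at 34.3%, 22.0% and 25.3% for replicates 1 to 3, and the shares below all DMSO libraries were 21.3%, 35.2% and 32.5%. Measured as the median deviation of the members from their mean on the log2 scale, the DMSO libraries stood at -0.06, -0.04 and -0.08 and the HFPO-TA libraries at -0.03, 0.10 and 0.09; over all genes the values were 0.06, -0.02 and -0.02 with DMSO and 0.05, -0.05 and -0.02 with HFPO-TA.

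Without HFPO-TA replicate 1, 3 members were called higher: ATP5F1D (adjusted p = 0.0254), UQCRB (0.0319) and ATP5F1B (0.0393). Over all the settings tried, the adjusted p ran from 0.0254 to 0.654 for ATP5F1D, from 0.0319 to 0.333 for UQCRB and from 0.0358 to 0.577 for ATP5F1B. The 3 called were 3.90% of members, beside 1.93% of all genes in that fit. With replicate 1 of both groups left out, UQCRB (adjusted p = 0.0406) and ATP5F1B (0.0358) were called, beside 1.78% of all genes. Without HFPO-TA replicate 2, the median log2 fold change of the members was 0.07 and 62 stood above 0. The names of the deposited tables give replicate 1 of each group another letter than replicates 2 and 3; the labels do not say what it marks, and with treatment and a term for replicate 1 in the same limma fit no member was called (smallest adjusted p = 0.0518), beside 1.32% of all genes.

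**Figure D4:**
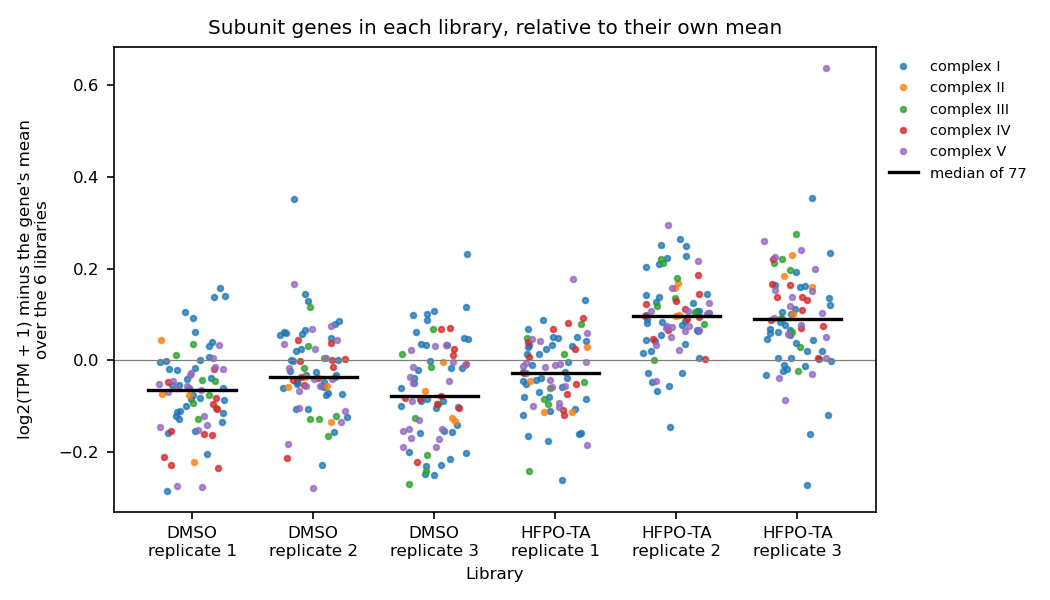
Deviation of each tested member from its 6-library mean (log2 scale), per library. Points are members, coloured by complex, and the line is the median of the 77 members. The medians of HFPO-TA replicates 2 and 3 lie at 0.10 and 0.09, and that of HFPO-TA replicate 1 at -0.03.

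Library totals (995690 to 996186 TPM) are set by the TPM scale and say nothing of depth. The libraries had 15383 to 15905 genes at 1 TPM or more, HFPO-TA replicate 1 the highest. Hepatoblast markers were present, and AFP, ALB, TTR and HNF4A had lower values in every HFPO-TA library than in any DMSO library. ALB stood at 113 ± 14.3 and 64.7 ± 9.84 TPM (log2 fold change -0.80, limma adjusted p = 0.0522), and the log2 fold changes of HNF4A, TTR and AFP were -0.35, -0.26 and -0.23 (adjusted p = 0.119, 0.0878 and 0.0867). The 12 hepatoblast and hepatocyte markers summed to 103020 to 113040 TPM with DMSO and 93198 to 100080 TPM with HFPO-TA, and 4 of the 12 had a log2 fold change above 0. At an unadjusted p under 0.05, 6 were lower, against 6.56% of all genes. Without overlap of the groups, 5 of the 12 were lower, against 9.40% of all genes. None passed the adjusted threshold. The 7 stromal markers summed to 1517 to 2197 TPM with DMSO and 1288 to 2483 TPM with HFPO-TA, with HFPO-TA replicate 1 the highest, and endothelial markers to 43.5 to 53.8 and 40.0 to 58.5 TPM, likewise. The part of these differences in the members' values was not tested. After each library was rescaled without AFP, the most abundant gene, 63 of 77 members were above 0 and the median was 0.09, against -0.02 over all genes. That rescaling takes out AFP alone and does not address the mix of cells.

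Genes that work with the members were read in the same fit, and none of the 10 lists held a called gene, against the same 0.492% of all genes. For the counts at an unadjusted p under 0.05 given for these lists, the share of all genes that were higher was 5.45%. It was 7.96% among genes whose mean reached 10 TPM. The 13 mitochondrially encoded subunits had 11 above 0, with a median log2 fold change of 0.09 and 2 higher at an unadjusted p under 0.05. MT-ND2, a core subunit of complex I, had the smallest p (2381 and 2940 TPM, adjusted p = 0.254). A list of 17 genes outside the symbol pattern held other subunits, cytochrome c, electron transfer flavoprotein genes and genes of coenzyme Q synthesis. It had 15 above 0, a median of 0.19 and 6 at an unadjusted p under 0.05, all higher. Most genes of this list belong to coenzyme Q synthesis, and its median was the value of 1 of them, COQ2. ETFA, a subunit of the flavoprotein that carries electrons from fatty acid oxidation to coenzyme Q, stood at 184 ± 10.5 and 237 ± 10.9 TPM (SD, n = 3 each; log2 fold change 0.37, SE 0.07, limma adjusted p = 0.0665). It passed in 4 of the other settings, at its lowest with replicate 1 of both groups left out (0.0202 to 0.324 over all). CYC1, cytochrome c1, stood at 124 ± 2.17 and 153 ± 28.6 TPM (adjusted p = 0.419), and CYCS, cytochrome c, at 64.9 ± 4.08 and 76.2 ± 5.28 TPM (adjusted p = 0.298). Without HFPO-TA replicate 1, MT-ND2 and CYC1 also passed (adjusted p = 0.0153 and 0.0235). The tissue isoforms COX4I2, COX6A2 and COX7B2 were at 0 throughout, and COX6B2 alone of 7 such genes was tested (adjusted p = 0.866).

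The 16 assembly factors of complex I had 14 above 0 (median 0.14, 3 higher at an unadjusted p under 0.05), and NDUFAF2 had the smallest p (35.7 and 42.2 TPM, limma adjusted p = 0.381). The 34 assembly factors of complexes II to V had 25 above 0 (median 0.04). Of these 34, 3 were higher at an unadjusted p under 0.05, close to the 7.96% of genes whose mean reached 10 TPM. COA6 of complex IV stood at 49.6 ± 4.96 and 60.6 ± 3.59 TPM (adjusted p = 0.251). The 49 proteins of the large mitochondrial ribosomal subunit had 39 above 0 (median 0.12, 9 higher), led by MRPL55 (96.0 and 114 TPM, adjusted p = 0.142). The 14 citric acid cycle genes had 11 above 0 (median 0.07, 3 higher), with MDH2, malate dehydrogenase of the mitochondrion, at an adjusted p of 0.298. Of 7 tested carriers 5 were above 0 (median 0.05; SLC25A5, an adenine nucleotide carrier, adjusted p = 0.449), and of 7 tested antioxidant enzymes all were (median 0.07; PRDX3, a mitochondrial peroxiredoxin, adjusted p = 0.536), with none at an unadjusted p under 0.05 in either list.

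The list of transcription factors and coactivators also held genes for the copying and expression of mitochondrial DNA, such as TFAM, TFB1M, TFB2M, POLRMT and POLG. Of its 19 tested genes 15 were above 0 (median 0.14). The 3 that were higher at an unadjusted p under 0.05 were YY1, TFB1M and TFB2M. YY1 had the smallest p, at 31.4 ± 3.52 and 39.8 ± 2.69 TPM (limma adjusted p = 0.231). PPARGC1A, the coactivator known for driving mitochondrial gene expression, was low at 1.32 ± 0.23 and 1.91 ± 0.63 TPM (adjusted p = 0.617). NRF1, named here after its values were seen, stood at 25.9 TPM in HFPO-TA replicate 1 and at 3.74 and 4.70 TPM in replicates 2 and 3, against 4.68, 4.87 and 4.62 TPM with DMSO (adjusted p = 0.776). TFAM, which packages and transcribes mitochondrial DNA, stood at 10.9 ± 0.61 and 9.76 ± 1.37 TPM (adjusted p = 0.706).

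**Figure D5:**
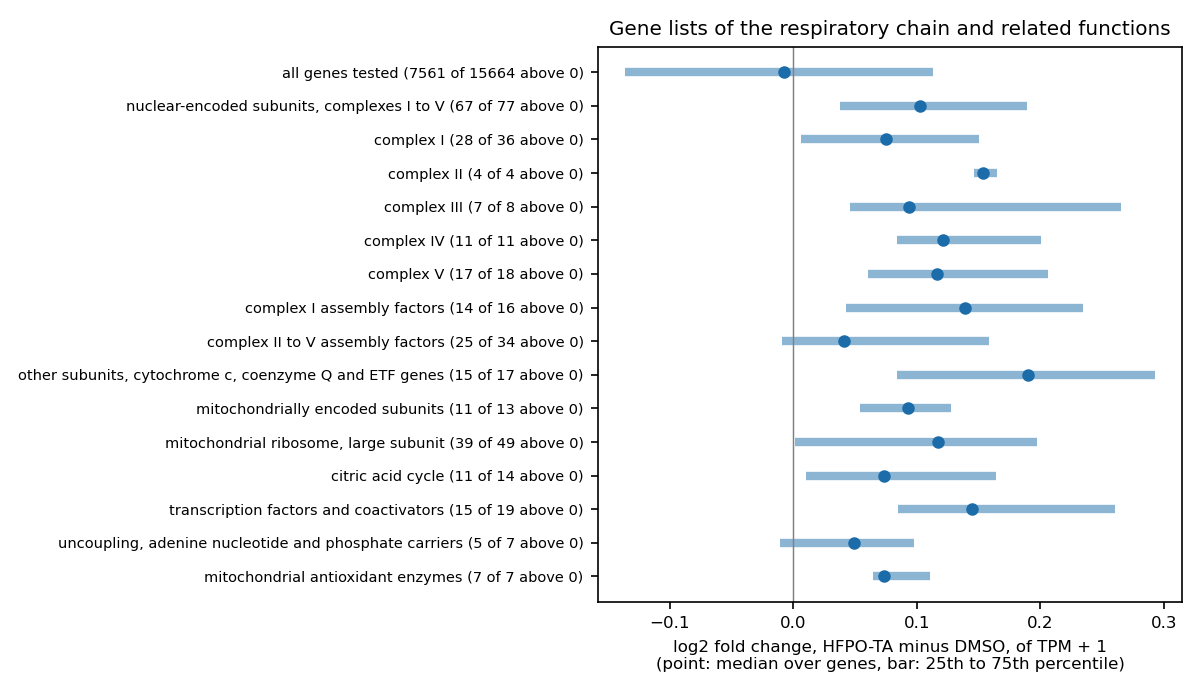
Median (point) and middle range from the lower to the upper quartile (bar) of the log2 fold change for the members, each complex and the other lists, beside all genes tested. The members stand at 0.10 and all genes tested at -0.01. The list outside the symbol pattern, which holds other subunits, carriers and genes of coenzyme Q synthesis, stands at 0.19.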

How the data were processed

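Each deposited table gave 1 value per gene for 60623 genes. The header names FPKM, but the 6 columns sum to 995690 to 996186, so the values were read as TPM made by the authors. Per the submitters' processing notes, HISAT, Bowtie2, RSEM and GRCh38.p13 were used, without stated versions or roles. Kit, strand setting and annotation: not given in the sources used here. Because depth cannot be had from TPM, no counting interval is given, and count tests were not run.

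A filter of 1 TPM or more in at least 3 libraries left 15664 genes, analysed as log2(TPM + 1). limma 3.58.1 (R 4.3.3) was fitted to all 6 libraries with treatment as the only term and a trended, robust variance, 2-sided. P-values were adjusted over all genes (Benjamini-Hochberg, threshold 0.05). Fold changes understate low genes. The members and lists were chosen with earlier results of these data known. Named by rule were, in each complex, the most abundant member, the least abundant and the 2 with the smallest p, together with isoform pairs, NDUFA4, ATP5IF1, the gene with the smallest p of each list, PPARGC1A, TFAM, CYC1, CYCS and COX4I2; the rule's 2 whole promoters were replaced by 30-base stretches, chosen later. Positions came from GENCODE 29 (GRCh38). The fitting script was checked on simulated data. Figures were drawn with matplotlib 3.10.9.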

Additional observations from a re-analysis of the deposited data

How the results depend on the processing

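The comparison was repeated under 18 other settings, of which the rescaling without AFP was chosen after seeing the data. The count of members called was 0 in 16 of them, 3 without HFPO-TA replicate 1 and 2 with replicate 1 of both groups left out (0 to 3 with 1 library left out at a time). The members' median log2 fold change kept its sign in all, from 0.07 to 0.14, with 62 to 70 members above 0. The count of all genes called, 77, was 10 with no filter on low values, 130 with at least 5 TPM in 3 libraries, 11 with neither variance trend nor robust estimate, 207 with a term for replicate 1, 39 with upper-quartile and 30 with median-of-ratios scaling, 265 with replicate 1 of both groups left out, and 5 to 296 with 1 library left out; fewer libraries or another set of genes enter several of these fits, and for the others the cause was not tested. With a replicate block 30 genes and 0 members were called (smallest adjusted p of a member 0.107). Deviations of same-numbered libraries correlated at 0.18, 0.12 and 0.03 (other pairs -0.16 to 0.07), and since HFPO-TA replicate 3 correlated best with DMSO replicate 2 the numbers were not treated as pairs. With 1 library left out the sign turned in 4 of the members named with values, none of them called: COX6A1 ranged from -0.04 (without DMSO replicate 1; -0.0068 without HFPO-TA replicate 2) to 0.1013, NDUFA13 from -0.0248 (without DMSO replicate 1; -0.0037 without HFPO-TA replicate 2) to 0.0926, NDUFV3 from -0.0173 (without DMSO replicate 3; -0.0076 without HFPO-TA replicate 2) to 0.1781 and ATP5ME from -0.0036 (without HFPO-TA replicate 2) to 0.0909. Depth is unknown and 3 libraries a group limit the precision.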
